A study of Mus musculus with 28 samples.

Results

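The comparison described here is between mouse embryonic stem (ES) cells lacking Dicer that received wild-type DICER1 and the same kind of cells that received an eGFP vector. It rests on 7 of the 28 arrays of the series, chosen by their titles: 4 arrays of Dicer-/- cells with a wildtype DICER1 transgene (R1 to R4) and 3 of Dicer-/- cells with eGFP (R1 to R3). Both transgenes were in the vector pLD-puro-ENvA, so both groups share the Dicer deletion, the vector and its puromycin marker. For reference the untransduced Dicer-null line (n = 3), an untransduced Dicer+/+ ES line (n = 2) and 3 mutants of DICER1 in the same vector (D1709A, n = 4; E1705K, n = 3; D1810Y, n = 3) are used. All cells were grown in ES cell medium and collected in log phase. The labels give neither the number of clones or cultures behind a group nor the species of the transgene. They name no second line of any genotype. The p-values therefore reflect array-to-array spread only, and that spread may be technical.

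DICER1 is the ribonuclease that cuts hairpin precursors into mature microRNAs (miRNAs), which are loaded into Argonaute proteins and lower the stability and translation of mRNAs that pair with the miRNA seed. Mouse ES cells lacking Dicer still self-renew, but grow slowly and differentiate poorly. The miRNAs best known in these cells are the miR-290 to miR-295 cluster and the miR-302 cluster, which share a seed and promote rapid passage from G1 to S phase. The let-7 family, low in ES cells and high in differentiated cells, is held back there by the RNA-binding proteins LIN28A and LIN28B.

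The mature sequences below are those whose target lists are described first. They are from RefSeq (GRCm38.p6), written 5′ to 3′, with the seed, bases 2 to 8, in capitals.
mmu-miR-291a-3p: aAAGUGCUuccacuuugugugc
mmu-miR-294-3p: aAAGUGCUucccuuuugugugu
mmu-miR-295-3p: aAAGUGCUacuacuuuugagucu
mmu-miR-302b-3p: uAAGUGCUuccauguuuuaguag
mmu-miR-302d-3p: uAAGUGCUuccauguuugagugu
mmu-miR-302c-3p: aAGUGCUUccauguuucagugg
mmu-miR-17-5p: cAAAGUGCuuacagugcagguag
mmu-let-7a-5p: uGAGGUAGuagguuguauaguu
The first 3 lie on the plus strand of chromosome 7, with miR-294-3p at chr7:3220691-3220712, and the miR-302 members on the plus strand of chromosome 3, with miR-302b-3p at chr3:127545275-127545297. The seed AAGUGCU was found in 5 of 1679 mature names of the table. In miR-302c-3p the same letters start 1 base earlier, so that its bases 2 to 8 read AGUGCUU, and in miR-17-5p they are shifted the other way to AAAGUGC, a seed of 7 names. The let-7 seed GAGGUAG was shared by 11 names. No mature miRNA was measured on these arrays.

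Levels are log2 intensities of 1 probe set per gene, and a change is the mean of the wild-type DICER1 arrays minus the mean of the eGFP arrays. A gene was called when its adjusted p was under 0.05, with limma and the Benjamini-Hochberg method over 13956 genes. The filter on low signal removed genes with a mean under 6.42, and for a gene with either group below that level only the levels are given. Array medians of the 7 arrays lay between 7.19 and 7.24. All 9 ES markers checked, among them Pou5f1, Nanog and Sox2, lay between 10.3 and 13.7 in both groups, as the label would have it. The probe set of Dicer1 read 9.45, 9.45 and 9.28 with eGFP and 9.26, 9.26, 9.27 and 9.44 with wild-type DICER1. The groups overlapped, and the change of -0.08 ± 0.06 (SE) was not called (adjusted p = 0.227). The untransduced Dicer+/+ line stood at 10.68 and the Dicer-null line at 9.27, so the probe set separates the parental genotypes but not the transgene, and whether it can read the transgene is not known. In wild-type DICER1 array R4 the SD of the difference from the mean of the other arrays of its group was 0.227 over all genes, against 0.102 to 0.108 for R1 to R3. R4 and R1 also take part in exact linear relations with arrays of other groups, described with the processing, so the closeness of R1 to R3 is not a measure of biological spread. Such relations can remain where array-set effects are subtracted, but the labels name neither such a step nor any array sets. Whether it was done is not known. A shift of the eGFP group from a step of that kind would enter every change given here and could not be told apart from the transgene.

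A large part of the transcriptome differed by small amounts between the groups. Of 13956 genes, 8307 (59.5%) were called, 4301 of them higher (30.8%) and 4006 lower (28.7%), and the median absolute change over all genes was 0.21. At least 2-fold changes were found in 210 genes that rose (1.5%) and 311 that fell (2.23%). A change of 4-fold or more was reached by 20 genes that rose and 34 that fell. The 7 arrays did not overlap between groups for 55.9% of all genes, and for 521 of the 521 genes changed at least 2-fold, which were chosen on the same arrays. After median centring of the arrays the called genes were 3788 higher and 4395 lower, so the small majority of rises depends on the scale. Against these shares a list of genes is read below.

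**Figure D1:**
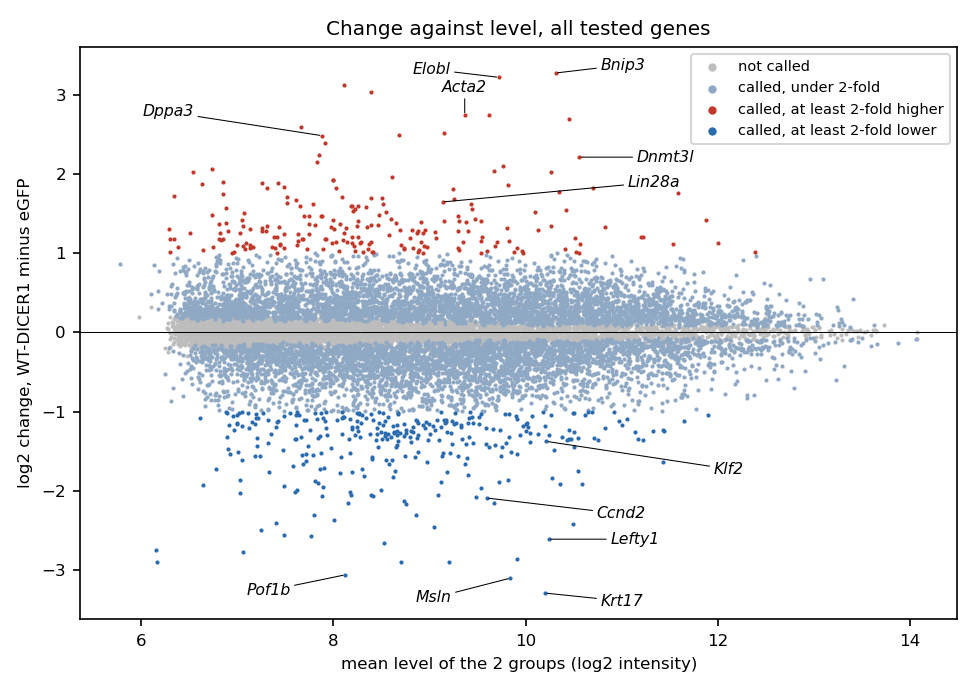
Each point is 1 of 13956 tested genes, with the mean level of both groups on the x axis (log2 intensity) and the log2 change of wild-type DICER1 minus eGFP on the y axis. Red points are the 210 genes called at least 2-fold higher and blue points the 311 called at least 2-fold lower, with Bnip3 at the top and Krt17 at the bottom.

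Genes reported as targets of miR-290 or miR-302 miRNAs fell as a group. Of 27 listed genes 25 were tested, of which 21 fell, 2 rose and 2 were not called, with a median change of -0.55 against 0.02 over all genes. Lefty1, which encodes a secreted inhibitor of Nodal, read 11.49, 11.57 and 11.58 with eGFP and between 8.48 and 9.16 in the 4 wild-type DICER1 arrays. All 4 wild-type arrays lay more than 2 units below the eGFP arrays, R4 lowest, a 6.11-fold fall (-2.61 ± 0.12 SE, adjusted p = 2.36e-15). Its paralogue Lefty2 fell from 10.01 ± 0.08 to 7.71 ± 0.08 (SD, n = 3 and 4), by 2.30 on the log2 scale (adjusted p = 1.22e-18). Epas1, which encodes the hypoxia-inducible factor HIF-2alpha, fell by 1.38, the Polycomb gene Bmi1 by 1.11 and Rbl2, a retinoblastoma-family repressor of cell cycle genes, by 0.94. Casp2, the gene of an apoptotic caspase and a reported target in ES cells, fell by 0.38. The 2 members that rose were Arid4b (0.59) and Lin52 (0.28), which is named only to complete this count.

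The list of Nodal and TGF-beta genes moved in the same direction through its ligands, inhibitors and cofactors, with 12 of 23 tested members lower and 6 higher. Nodal itself, the ligand, fell from 10.91 to 10.53 (-0.38 ± 0.05 SE, adjusted p = 1.87e-07). Foxh1, a DNA-binding partner of SMAD2 and SMAD3 in this pathway, fell by 1.14, and the ligand gene Gdf3 by 1.12. Smad7, whose product blocks the receptors, went the other way: it read 10.19, 10.17 and 10.14 with eGFP and 11.07, 11.06, 11.05 and 11.08 with wild-type DICER1. Both groups were tight and well apart (0.90 ± 0.04 SE, adjusted p = 1.80e-16). Between the untransduced lines Smad7 did not differ (0.00, adjusted p = 0.984). The eGFP arrays lay below the untransduced Dicer-null line (-0.55) and the wild-type DICER1 arrays above it (0.35). Measured from that line, the larger part of the distance for Smad7 lies below it. That low level was not particular to eGFP. The mutants in the same vector stood at 10.31 (D1709A), 10.22 (E1705K) and 10.14 (D1810Y), and wild-type DICER1 was 0.84 above their mean (adjusted p = 1.34e-17).

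Lists of let-7 and of miR-17 and miR-106 targets moved less uniformly. Among 21 tested let-7 targets 11 fell and 6 rose, with a median of -0.16, and among 20 tested miR-17 targets 12 fell and 4 rose, with a median of -0.27. The miR-17 list also held a strong rise: Runx1, a transcription factor gene of blood formation, read 6.59, 6.81 and 6.70 with eGFP and 8.25, 8.22, 8.32 and 8.53 with wild-type DICER1. The groups were well apart, with a 3.09-fold rise (1.63 ± 0.08 SE, adjusted p = 1.69e-14), and the untransduced Dicer-null line stood at 6.68, near the eGFP arrays. Ccnd2, which encodes cyclin D2 and is on both lists, read 10.67, 10.65 and 10.61 with eGFP and 8.45, 8.35, 8.48 and 8.93 with wild-type DICER1. The fall was 4.26-fold (-2.09 ± 0.11 SE, adjusted p = 1.10e-14), with no overlap. Part of that distance lies in the eGFP arrays, since the untransduced Dicer-null line stood at 9.27, below the eGFP arrays by 1.37 and above the wild-type DICER1 arrays by 0.72. Ccnd1, the gene of cyclin D1, fell by 1.23 from 12.05 to 10.82. Plagl1, a zinc-finger gene that is also imprinted, fell by 1.28.

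The LIN28 genes moved in opposite directions. Lin28a read 8.17, 8.47 and 8.30 with eGFP and 9.87, 9.84, 9.93 and 10.20 with wild-type DICER1, a 3.13-fold rise (1.65 ± 0.08 SE, adjusted p = 5.01e-15) that brought it to the level of the Dicer+/+ line (9.86). Lin28b fell from 8.98 to 7.97 (-1.01 ± 0.06 SE, adjusted p = 2.56e-13). The eGFP arrays already stood above the untransduced Dicer-null line, by 0.80 for Lin28a and by 0.39 for Lin28b. The Myc genes also moved in opposite directions. Myc rose from 8.69 ± 0.12 to 10.08 ± 0.33 (SD), by 1.39, with R4 the highest at 10.57, while Mycn fell by 0.67. For Myc the untransduced lines stood lower than either group, at 7.57 without Dicer and 7.78 with it, a difference that was not called (adjusted p = 0.303).

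Among 23 tested genes of the miRNA machinery 10 fell and 4 rose, and Lin28a and Lin28b had the largest changes. The other 9 were not called, Dicer1 among them. The next largest changes were falls of Ago1, an Argonaute gene (-0.80), and of Tnrc6b and Tnrc6a, which encode GW182 scaffold proteins (-0.80 and -0.55). Probe sets named after miRNA genes read hairpin-containing transcripts. Over all 19938 symbols without the expression filter 44.2% were called, and of 300 miRNA symbols 25 rose and 39 fell, with 112 at or above the filter level. The miR-302 cluster stood out in level: Mir302b read 7.70, 7.41 and 7.72 with eGFP and 4.50, 4.32, 4.38 and 5.66 with wild-type DICER1. It therefore fell to a level under 6.42 in all 4 arrays, R4 being highest, and the eGFP arrays were also above the Dicer-null line (5.45) and the Dicer+/+ line (5.61). Mir302a, Mir302c and Mir302d were likewise above 6.42 on average with eGFP and below it with wild-type DICER1. Mirlet7f-1 rose from a level under 6.42 (5.67) to 6.96, and Mir17hg, the host transcript of the miR-17 cluster, rose by 0.57. Other probe sets of these families were mixed. Mirlet7d rose by 0.44, Mirlet7e by 0.23 and Mir98, whose mature miRNA has the let-7 seed, by 0.87. Mirlet7a-1 (6.19 and 6.16) and Mirlet7i (7.35 and 7.49) were not called. Mirlet7c-1 fell from 4.29 to 3.79, with both groups under 6.42. Of the miR-17 cluster Mir19b-1 (0.59), Mir20a (0.45) and Mir19a (0.27) rose, while Mir17 (0.11) and Mir18 (-0.02) were not called.

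**Figure D2:**
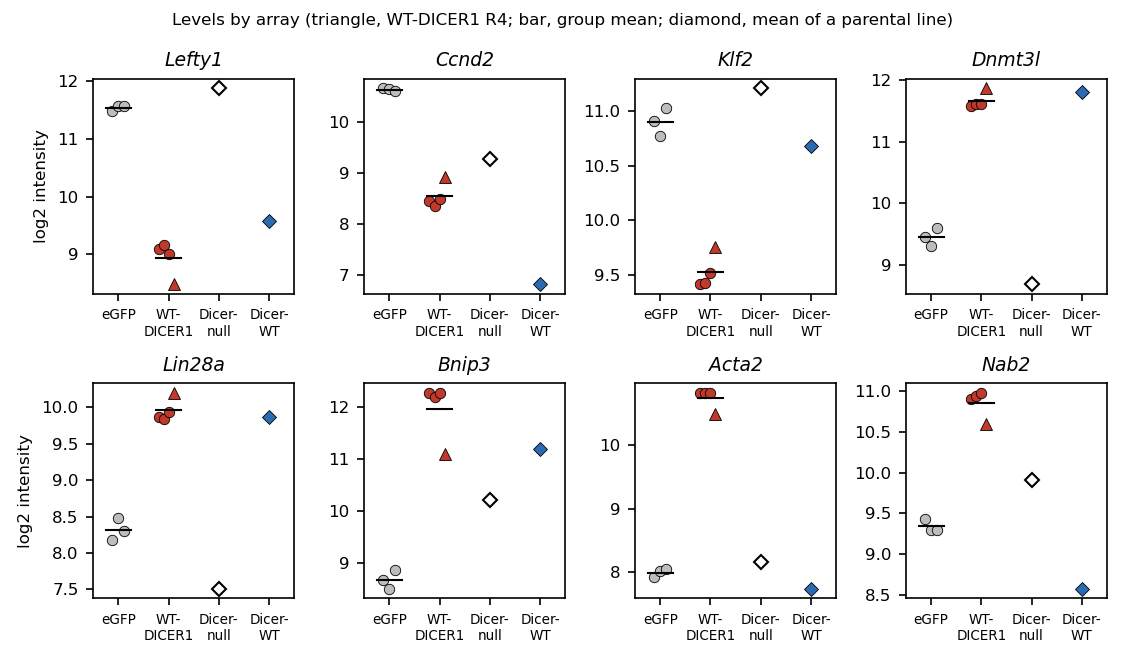
Log2 intensity of 8 genes in each of the 3 eGFP arrays (grey) and 4 wild-type DICER1 arrays (red, R4 as a triangle), with group means as bars and the means of the untransduced Dicer-null (open diamond, n = 3) and Dicer-WT (blue diamond, n = 2) lines. No gene shows overlap between the 7 arrays, and Acta2 and Nab2 rose although the Dicer-WT line is lower than the Dicer-null line. The y axes differ between genes and do not start at 0.

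Core pluripotency genes changed little, and several accessory genes changed strongly. Of 27 tested genes of the pluripotency list 10 rose and 11 fell, with a median of 0.01. Pou5f1, which encodes OCT4, moved by -0.22 around 12.6 to 12.9, and Zfp42, which encodes REX1, rose by 0.62. Dppa3, a gene of the germ line and early embryo whose product protects DNA methylation at imprinted loci, read 6.62, 6.76 and 6.54 with eGFP and 9.07, 8.97, 9.08 and 9.37 with wild-type DICER1. It rose 5.59-fold (2.48 ± 0.10 SE, adjusted p = 5.84e-17) to the level of the Dicer+/+ line (9.05). Klf2 and Prdm14, transcription factors of the naive state, fell by 1.38 and 1.16.

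Among DNA methylation genes 6 of 16 rose and 7 fell, and 1 change exceeded 2-fold. Dnmt3l, the catalytically inactive cofactor of the de novo methyltransferases, read 9.45, 9.31 and 9.59 with eGFP and 11.57, 11.61, 11.60 and 11.87 with wild-type DICER1. The rise was 4.63-fold (2.21 ± 0.07 SE, adjusted p = 1.09e-18), again to near the Dicer+/+ line (11.80). Dnmt3b, a de novo methyltransferase, fell by 0.70, but the eGFP arrays stood 1.25 above the untransduced Dicer-null line, and wild-type DICER1 was 0.55 above that line (adjusted p = 1.40e-05), the opposite direction. Tet3, a 5-methylcytosine oxidase, fell by 0.63. Of 22 Polycomb genes 11 rose and 7 fell. Mtf2, a subunit that recruits the PRC2 complex, rose by 1.13 while Bmi1 of PRC1 fell, as given above.

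Germline and imprinted genes rose more often than they fell. In the germline and meiosis list 10 of 17 tested genes rose and 4 fell, with a median of 0.34. Dazl, an RNA-binding protein gene of germ cells, rose by 1.71 and Stag3, a meiotic cohesin subunit, by 1.28. Sycp3, of the synaptonemal complex, rose from a level under 6.42 (6.37) to 8.96. Rhox9, an X-linked homeobox gene, fell by 1.26 with an SE of 0.03. In the imprinted list 10 of 21 rose and 3 fell, among them Sgce (1.96), Phlda2 (1.76), which restrains placental growth, and the growth factor gene Igf2 (1.01, with R4 lowest at 10.58 and the other 3 arrays at 11.19 to 11.23).

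Glycolytic and hypoxia-inducible genes formed the group with the largest single rise. Of 19 tested glycolysis genes 14 rose and 1, Pfkfb4, fell by 0.36 (median 0.57), and of 26 tested hypoxia-inducible genes 18 rose and 6 fell (median 0.42). Between the untransduced lines 11 glycolysis genes were higher and 5 lower with Dicer (median 0.15). Of the hypoxia-inducible genes 8 were higher there and 6 lower (median -0.06). Bnip3, which encodes a mitophagy receptor and is a classical HIF target, read 8.66, 8.51 and 8.86 with eGFP and 12.27, 12.19, 12.26 and 11.08 with wild-type DICER1. R4 was more than 1 unit below the other wild-type arrays but more than 2 above every eGFP array, and the rise was 9.67-fold (3.27 ± 0.23 SE, adjusted p = 4.46e-12; 3.56 without R4). The untransduced Dicer-null line stood at 10.21, above the eGFP arrays by 1.54, so wild-type DICER1 exceeded that line by 1.74.

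Other members moved with less distance. Among enzymes of glycolysis Aldoc (aldolase C) rose by 1.86, Pfkp and Pfkl (phosphofructokinases) by 1.77 and 1.12, Pgk1 by 0.96, and Slc16a3, the lactate exporter gene, by 1.68. P4ha1, a collagen prolyl hydroxylase gene, rose by 1.62, and Egln3, an oxygen sensor gene, by 1.09. For Egln3 array R4 (9.37) lay close to the eGFP arrays (9.13 to 9.16), while the other 3 read 10.49 to 10.57, and the change without R4 was 1.37. Vegfa, the angiogenic growth factor gene, rose by 1.29 against eGFP, but its level with wild-type DICER1 (9.60) was that of the untransduced Dicer-null line (9.57; difference 0.03, adjusted p = 0.799). Epas1 fell, as given above. R4 was the lowest of the 4 wild-type arrays for Bnip3, P4ha1, Vegfa, Egln3, Aldoc, Pfkp, Slc16a3, Pfkl and Pgk1.

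The promoter of Bnip3 is shown because its gene rose most. The 250 bases upstream of the RefSeq start, chr7:138909507-138909756 on the minus strand of GRCm38.p6, are printed with matches to the core of the HIF response element, ACGTG or GCGTG on either strand, in capitals.
Bnip3 promoter: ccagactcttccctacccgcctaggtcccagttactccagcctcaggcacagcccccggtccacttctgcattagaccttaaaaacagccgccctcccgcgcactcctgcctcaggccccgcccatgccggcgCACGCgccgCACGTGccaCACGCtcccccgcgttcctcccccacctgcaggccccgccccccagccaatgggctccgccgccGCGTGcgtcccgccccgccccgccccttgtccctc
It holds 5 matches, of which a pair overlap in CACGTG. The same core was found in 38.6% of 32851 promoter windows of that length and in 41.5% of 27025 genes. In the hypoxia list 19 of 21 tested members with a window held it, and in the glycolysis list 16 of 18. Base composition was not matched, and these matches are a description of letters.

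Targets of serum response factor (SRF) and genes of the immediate early and ERK response rose, against their direction between the untransduced lines. Of 23 tested actin and SRF genes 16 rose and 4 fell (median 0.50), while in the Dicer+/+ line 1 was higher and 16 were lower than in the Dicer-null line. Without R4 the count was 12 higher and 4 lower. The trophoblast and sterol synthesis lists, given below, also rose on balance against their direction between the untransduced lines. Acta2, which encodes smooth muscle actin, read 7.92, 8.01 and 8.05 with eGFP and 10.82, 10.83, 10.82 and 10.49 with wild-type DICER1. The rise was 6.71-fold (2.75 ± 0.09 SE, adjusted p = 2.49e-18), and the Dicer+/+ line was 0.42 below the Dicer-null line.

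For other smooth muscle genes array R4 stood far from the rest. Cnn1, the gene of the actin-binding protein calponin, read 6.80, 6.84 and 6.63 with eGFP and 8.44, 8.53, 8.61 and 10.06 with wild-type DICER1. R4 was far above the rest, and the rise of 2.15 became 1.77 without it. Tagln, another smooth muscle gene, rose from 8.19 to 9.19, with R4 at 10.12, and by 0.69 without R4. Des, which encodes desmin, rose by 2.24, Ccn1, a secreted matrix protein gene, by 1.20, and Srf by 0.73. Ankrd1 rose from a level under 6.42 (5.88) to 7.14.

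The upstream window of Acta2 is shown as that of the list's largest rise, chr19:34255374-34255623 on the minus strand. A strict CArG box, the SRF binding motif, has no match in it. After that was seen, the search was repeated with a looser box that allows 1 C or G among the 6 inner bases, and its 2 matches, at 84 and 34 bases before the start, are in capitals.
Acta2 promoter: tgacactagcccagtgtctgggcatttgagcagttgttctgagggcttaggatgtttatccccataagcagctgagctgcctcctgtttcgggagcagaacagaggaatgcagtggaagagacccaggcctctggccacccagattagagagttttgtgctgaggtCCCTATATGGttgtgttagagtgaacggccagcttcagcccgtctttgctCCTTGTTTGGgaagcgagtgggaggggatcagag
The strict box was found in 1.62% of 27025 genes, in 5 of 19 tested members of the actin and SRF list and in 2 of 18 of the immediate early list. The looser box, chosen with the Acta2 window in view, was found in 9.78% of genes, 7 of 19 and 3 of 18.

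The immediate early and ERK feedback list had the highest share of rises among the lists, with 24 of 28 members higher and 2, Jund (-0.81) and Ier3 (-0.53), lower. Its median was 0.71. Between the untransduced lines 4 members were higher and 16 lower with Dicer. Nab2, a corepressor of EGR factors, read 9.43, 9.30 and 9.30 with eGFP and 10.91, 10.94, 10.98 and 10.60 with wild-type DICER1, with no overlap and a 2.86-fold rise (1.51 ± 0.09 SE, adjusted p = 4.97e-13). It was 1.33 lower in the Dicer+/+ than in the Dicer-null line. Hbegf, an EGF receptor ligand gene, rose by 1.20 against a parental difference of -1.02. Phlda1 (0.83) and Egr1 (0.86), named after their values were seen, had parental differences of -2.05 and -0.88. Egr1 with wild-type DICER1 stood below the Dicer-null line (-0.41, adjusted p = 1.12e-04), and so did the eGFP arrays (-1.27).

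A pair of feedback regulators of ERK signalling were higher in both settings. Dusp4, a MAP kinase phosphatase gene, rose by 1.71 and was 2.30 higher in the Dicer+/+ line. Spry4, a Sprouty inhibitor gene, rose by 1.21 and was 0.41 higher there. Fosl1, an AP-1 subunit gene, rose by 1.18. Fos, also named after its values were seen, rose by 0.37 between groups that were both far below the untransduced Dicer-null line (6.67 and 7.04 against 10.20), so the transduced cells differ from that line for this gene by more than they differ from each other.

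**Figure D3:**
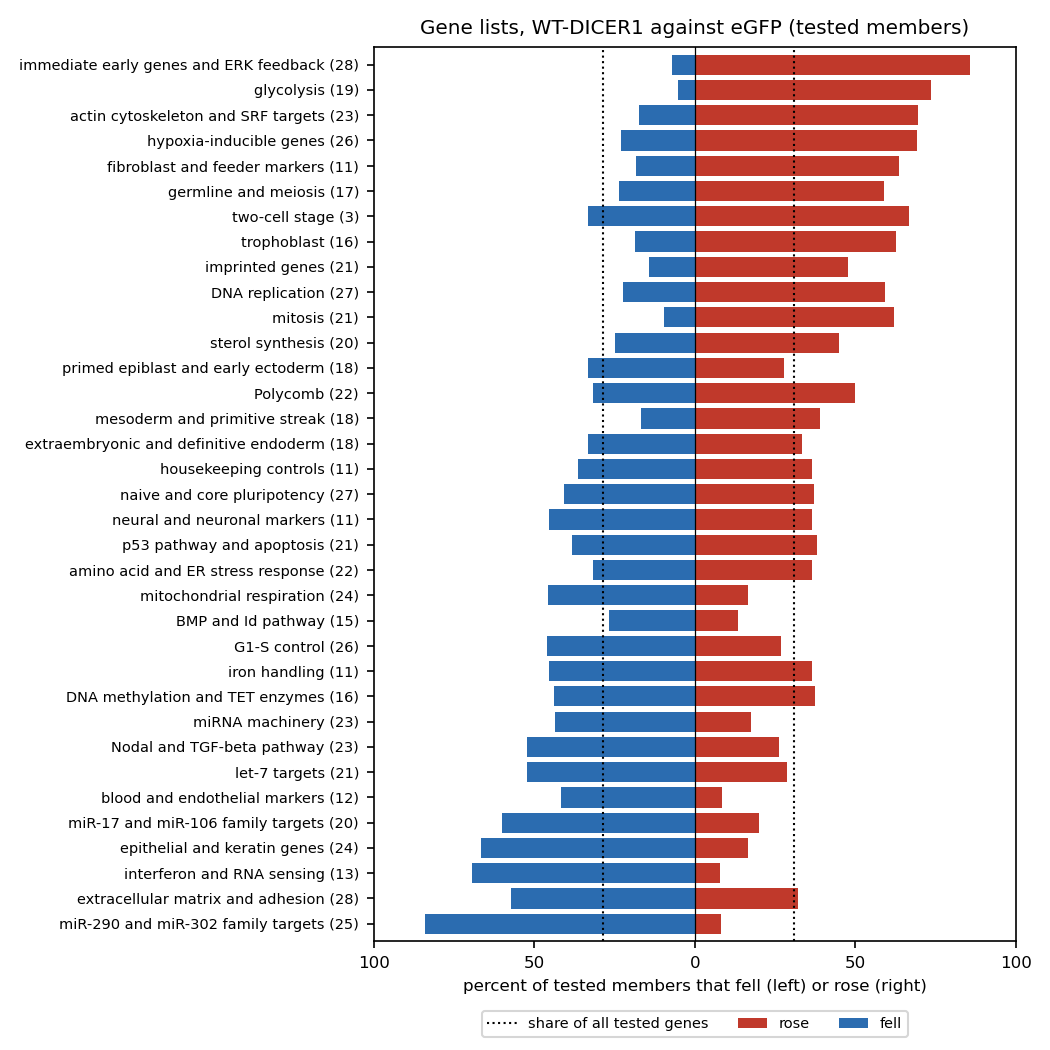
For each of 35 gene lists, the percent of tested members (number in brackets) that rose (red, right) or fell (blue, left) with wild-type DICER1, ordered by median change. Dotted lines mark the shares of all tested genes, 30.8% higher and 28.7% lower. The immediate early list is at the top with 24 of 28 higher, and the miR-290 and miR-302 targets are at the bottom with 21 of 25 lower.

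Lineage genes moved in several directions at low or middle levels. In the trophoblast list 10 of 16 tested genes rose and 3 fell (median 0.27). Between the untransduced lines 3 members were higher and 7 lower with Dicer. Eomes, a T-box factor gene of trophoblast and primitive streak, rose by 1.33 from 7.31 to 8.64, Gata3 by 1.17, and the FGF receptor gene Fgfr2 from 8.44 to 9.44, while Plet1 fell by 1.01. Bmp4, a ligand gene, read 8.78, 8.62 and 8.59 with eGFP and 9.96, 9.94, 9.91 and 11.06 with wild-type DICER1. R4 was 1 unit above the rest, and the rise of 1.55 was 1.27 without it. The eGFP arrays lay below the untransduced Dicer-null line for Bmp4 (-0.91), and wild-type DICER1 exceeded that line by 0.65 (adjusted p = 0.011). Other members of the BMP and Id list mostly were not called (9 of 15).

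In the endoderm list 6 of 18 rose and 6 fell, with Gata6, a primitive endoderm factor gene, higher by 1.15 and Lrp2, the gene of the endocytic receptor megalin, lower by 1.19. The 4 wild-type arrays of Lrp2 read 8.21, 8.15, 8.16 and 9.26, and the eGFP arrays 9.69, 9.62 and 9.59. R4 lay close to the eGFP arrays without overlap. In the primed epiblast list 5 of 18 rose and 6 fell, with Cdh2, which encodes N-cadherin, lower by 1.64 and Lef1, a transcription factor gene of WNT signalling, higher by 1.34 (1.20 without R4). In the mesoderm list 7 of 18 tested genes were higher and 3 lower.

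Markers of other cell types moved with these changes. The mean level of 13 fibroblast or feeder markers was 6.57 to 6.72 over the eGFP arrays and 6.90 to 7.07 over the wild-type DICER1 arrays, and 6 of them rose and 2 fell, tested without the filter. Pdgfrb rose from 6.48 to 7.79 and Postn from a level under 6.42 (4.81) to 7.21 ± 0.64 (SD), while Fbln1 fell by 0.31 and Twist1 by 0.33, and Lum and Fap stayed near the bottom of the scale, at 4.10 and 4.44 with eGFP and 4.08 and 4.32 with wild-type DICER1. Trophoblast markers averaged 6.87 to 7.003 against 7.17 to 7.29, endoderm markers 6.59 to 6.73 against 6.81 to 7.06, and blood or endothelial markers 6.81 to 6.85 against 6.67 to 6.84. The mean of 5 neural markers moved down without overlap, from 8.46 to 8.52 with eGFP to 8.05 to 8.23 with wild-type DICER1. Of these 2 fell, Tubb3 (-0.91) and Map2 (-1.28), and 1 rose, Stmn2 (0.27). The longer neural list was balanced, with 4 of 11 tested genes higher and 5 lower (median 0.01). Map2 is taken up again below, and Gap43, a growth cone gene of the longer list, rose from a level under 6.42 (6.12) to 7.49. In bulk RNA, more cells of a type and more RNA per cell cannot be told apart, and the part of such cells in the rises of Acta2, Cnn1, Tagln or the lineage genes was not tested.

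Keratin and epithelial genes held the deepest falls. Of 24 tested members 16 fell and 4 rose. Krt17, a keratin gene of basal epithelia, read 11.88, 11.78 and 11.89 with eGFP and 8.52, 8.37, 8.37 and 8.97 with wild-type DICER1, a 9.79-fold fall with no overlap (-3.29 ± 0.12 SE, adjusted p = 1.43e-17). Msln, which encodes mesothelin, fell 8.59-fold, from 11.39 ± 0.03 to 8.29 ± 0.05 (SD). Pof1b, an actin-binding gene, fell by 3.06, and Grhl2, an epithelial transcription factor gene, by 1.23. For Pof1b the eGFP arrays stood 1.18 above the untransduced Dicer-null line (8.47), and wild-type DICER1 lay below that line (-1.88). Cldn3, a tight junction gene, fell by 0.99.

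Matrix and interferon genes also fell more often than they rose. In the extracellular matrix list 16 of 28 fell and 9 rose (median -0.36), among the rises Cd44, the hyaluronan receptor gene, from a level under 6.42 (6.26) to 7.44. In the interferon and RNA sensing list 13 of 27 genes were tested, of which 9 fell and 1, Bst2, rose by 0.85. Irgm1, an interferon-induced GTPase gene, fell by 2.01 from 8.61, with R4 highest at 7.45 and the others at 6.21 to 6.39. Irf9, part of the complex that transmits type I interferon signals, fell by 1.36, and Mavs, the adaptor of RNA sensing, by 0.87.

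Replication and mitosis genes rose by small amounts. Of 27 replication genes 16 rose and 6 fell (median 0.20), of 21 mitosis genes 13 rose and 2 fell (median 0.16), and none of either list reached 2-fold. For G1-S control the count was 7 higher and 12 lower of 26, with Ccnd1 and Ccnd2 among the falls. The p53 and apoptosis list split evenly at 8 and 8 of 21. Mitochondrial respiration genes fell in 11 and rose in 4 of 24 cases, and sterol synthesis genes were higher in 9 and lower in 5 of 20 cases. Between the untransduced lines 1 gene of the sterol list was higher and 13 were lower with Dicer. Ebp, a sterol isomerase gene of that list, read 10.59 on average with eGFP and 9.29 with wild-type DICER1, and fell more than 2-fold. Of 11 iron handling genes 4 rose and 5 fell, and Steap1, of a metalloreductase family, rose by 1.55 from 7.45. Housekeeping genes changed in 4 cases each way of 11.

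The remaining largest changes belong to genes outside the lists. Pla2g1b, a secreted phospholipase gene, had the smallest adjusted p of those named: it read 9.12, 9.05 and 9.14 with eGFP and 11.84, 11.78, 11.82 and 11.73 with wild-type DICER1 (2.69 ± 0.04 SE, adjusted p = 5.76e-25). Elobl rose by 3.22, Car4, a carbonic anhydrase gene, by 3.12, Prelid2 by 3.03, Kdelr3, an ER retention receptor gene, by 2.52, Gpx3, a secreted glutathione peroxidase gene, by 2.48, and Fam111a by 2.38. Among the falls were Ido2 (-2.90), an enzyme of tryptophan breakdown, Fetub (-2.90), Ccdc141 (-2.86), Apobec2 (-2.66), the alcohol dehydrogenase gene Adh7 (-2.57) and Prss35 (-2.46). Ube2dnl1 and C1qtnf9 fell from 8.45 and 8.50 to levels under 6.42. Part of the distance for Ido2 and Kdelr3 lies in the eGFP arrays. For Ido2 these stood 1.65 above the untransduced Dicer-null line (8.51), and wild-type DICER1 lay below that line (-1.25). For Kdelr3 the eGFP arrays lay below the Dicer-null line (-1.11) and wild-type DICER1 above it (1.41).

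For several genes the eGFP arrays stood apart from the untransduced Dicer-null line. Between those groups 47.6% of all genes were called, against 59.5% in the main comparison, and 1.91% were called at least 2-fold. Nefl, a neurofilament gene, stood at 11.42 with eGFP, 9.67 with wild-type DICER1 and 9.72 in the Dicer-null line, so its fall of 1.75 had no counterpart against that line (-0.05, adjusted p = 0.817). Map2, a neuronal microtubule gene, gave 9.33, 8.05 and 8.24. Hmox1, which encodes heme oxygenase 1, rose by 1.82 against eGFP (9.80), but stood at 11.61 with wild-type DICER1 and 11.29 in the Dicer-null line. Whether the arrays were processed in sets, and which then shared a set with the eGFP arrays, is not given in the labels.

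The untransduced lines, which share no array with this comparison, allow the same question to be asked of the endogenous gene. The Dicer+/+ line was higher than the Dicer-null line for 27.2% of genes and lower for 30.7%. Of the 210 genes that rose at least 2-fold with wild-type DICER1, 153 (72.9%) were also higher in the Dicer+/+ line, 19 were lower and 38 were not called. Of the 311 that fell, 280 (90%) were also lower there, 6 were higher and 25 were not called. Counted at 2-fold on both sides, 79 genes were shared by the rises, 37.6% of the transgene list and 24.7% of the parental list of 320, and 194 by the falls, 62.4% and 29.8% of 650. Over all genes the changes had r = 0.62, across genes that are not independent replicates. One of the exact relations between arrays joins arrays of the Dicer-null, Dicer+/+ and wild-type DICER1 groups.

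**Figure D4:**
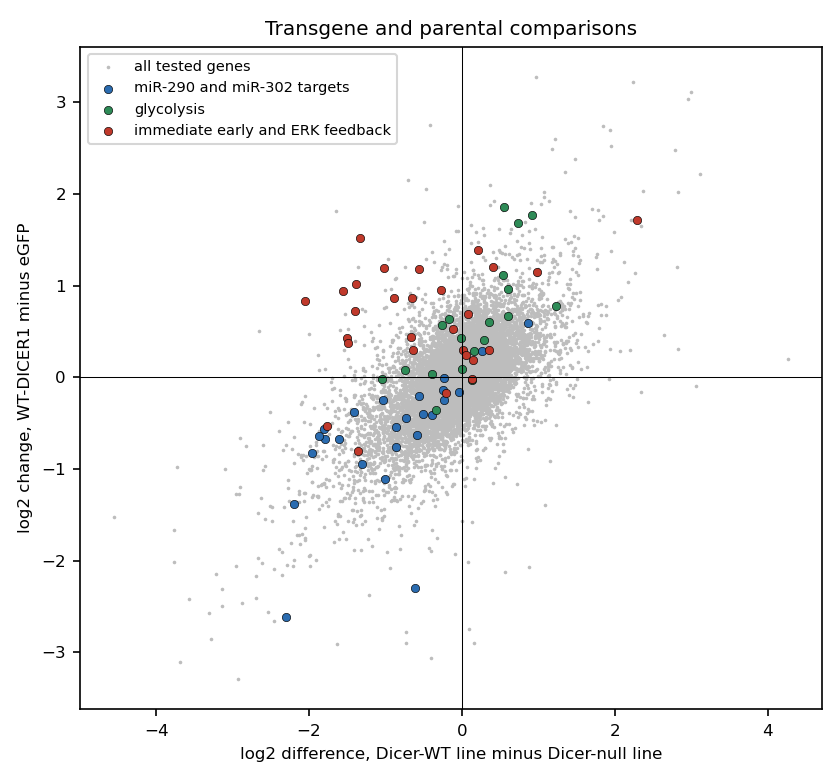
Each point is a tested gene, with the log2 difference of the untransduced Dicer-WT minus Dicer-null lines on the x axis and the log2 change of wild-type DICER1 minus eGFP on the y axis. Targets of miR-290 and miR-302 (blue) lie mostly at the lower left, while many immediate early and ERK genes (red) lie at the upper left, where the directions differ.

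Wild-type DICER1 was also set against the mean of D1709A, E1705K and D1810Y in the same vector, which asks how much of a change the mutants share. Of all genes 25.8% were higher and 30.2% lower with the wild type. For several genes described above each mutant mean stood between eGFP and wild type: Lefty1 was 1.55 lower with the wild type than with the mutants (adjusted p = 9.51e-13), Ccnd2 1.03 lower and Bnip3 1.49 higher. Dazl was 1.52 higher with the wild type (8.95) than with the mutants, of which D1709A (7.52) and E1705K (7.66) lay above eGFP (7.24) and D1810Y (7.11) below it. For others the difference from the mean of the mutants was not called, as for Bmi1 (0.00, adjusted p = 0.984) and Myc (-0.08, adjusted p = 0.569). For Acta2 (-0.04, adjusted p = 0.693) that mean hides mutants on both sides of the wild type (10.74): D1709A stood at 11.52, E1705K at 10.26 and D1810Y at 10.55. Msln (-0.03, adjusted p = 0.670) likewise gave 8.83, 7.89 and 8.23 in that order, around 8.29. Car4 was 1.39 higher with the mutants, Lin28a 0.63 and Dnmt3l 0.40. Nab2 and Hbegf were 2.24 and 1.56 higher with the wild type, more than their distance from eGFP.

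The check without array R4 left the comparison largely in place. Without it, 4.14% of genes were called at least 2-fold in either direction. Of the 521 genes changed at least 2-fold with all 4 arrays, 521 were still called in the same direction and 503 still reached 2-fold. Since R1 to R3 took part in the choice of these genes, that outcome was likely in advance. Over all called genes 7866 of 8307 were still called, and 611 were called only without R4. For 356 of the 521 genes R4 lay between the eGFP mean and the mean of R1 to R3, and for 421 it lay within 0.5 of the latter. The iron exporter gene Slc40a1 was the exception among the named genes: its wild-type arrays read 7.69, 7.56, 7.53 and 8.87 and its eGFP arrays 8.60, 8.49 and 8.45. R4 lay above every eGFP array and the others below, and the change of -0.60 (adjusted p = 0.0390) became -0.92 without R4 (adjusted p = 9.81e-05).

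**Figure D5:**
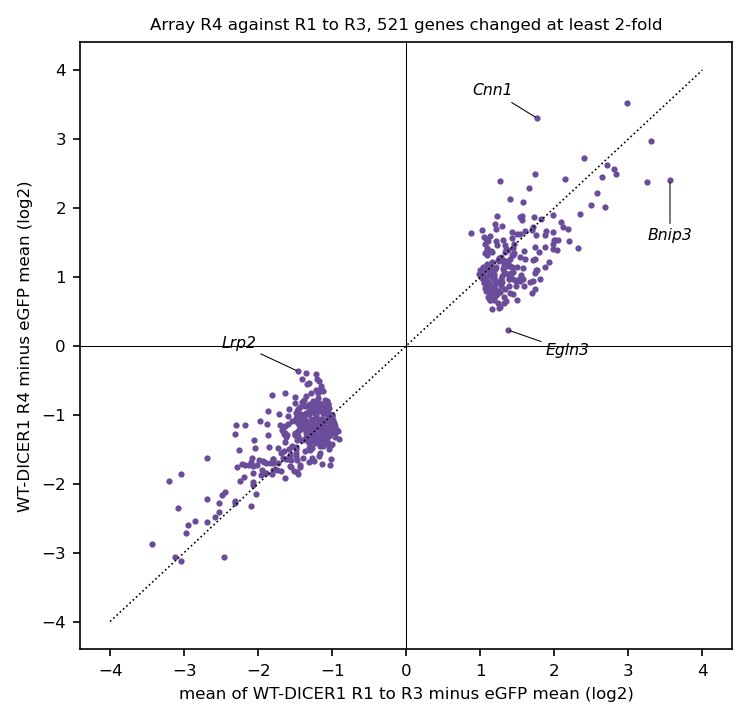
For the 521 genes changed at least 2-fold, the mean of wild-type DICER1 arrays R1 to R3 minus the eGFP mean (x axis, log2) against array R4 minus the eGFP mean (y axis, log2). The dotted line marks equal values. Every point keeps its sign in R4, Bnip3 and Egln3 fall below the line on the rising side, and Cnn1 lies above it. The genes were chosen with R4 among the arrays.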

How the data were processed

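The authors deposited 1 table of log2 expression values for 35556 probe sets on 28 Affymetrix Mouse Gene ST arrays, credited to RMA and Partek 6.6 per the submitters' processing notes, with settings not given in the sources used here. Of the probe sets 21789 had 1 gene symbol, 1621 several and 12146 none in the platform annotation. For each of 19938 symbols the brightest probe set on average was kept, and genes with a mean under the 30th percentile (6.42) were left out, leaving 13956. Of these, 13915 matched the reference table by identifier.

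All 28 arrays entered 1 limma 3.58.1 model (R 4.3.3) with 10 groups, a mean-variance trend and 18 residual degrees of freedom. Tests were two-sided, with Benjamini-Hochberg adjustment over all tested genes. The number of arrays limits the precision. The deposited values obey 3 exact relations. The deviations of wild-type DICER1 R4 and D1709A R4 from arrays R1 to R3 of their groups sum to 0 within 0.000133, R1 deviations over 5 groups do so within 0.000183, and the wild-type DICER1 means of both vectors are equal within 7.5e-05. With these relations the p-values are approximate. Such relations can remain when effects of array sets are subtracted, a step that the labels do not name. They give no array sets either, so a shift of the eGFP group by such a step, which would move every change, cannot be checked.

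Genes named in the text are Dicer1, the 12 largest called rises and falls, up to 5 called members of each of 35 lists and members needed for a count of 5 or fewer. Of the list members, those under 2-fold are named in part. Predicted, miRNA, snoRNA and receptor genes were left out of that rule. Pou5f1, Zfp42, Nodal, Srf, Fos, Fosl1, Egr1, Phlda1, Casp2 and the cell type markers were named besides, after their values were seen. The looser CArG box and the difference between transgene and parental changes were also chosen then. Groups, lists and members were chosen with earlier results of these data known. Promoter windows and miRNAs are from RefSeq. The model was tested on simulated data with independent noise and without exact relations between arrays, so that test does not cover this feature of the deposited values. Alternatives were the leaving out of each array, the filter, the choice of probe set, the variance model, centring, the 7 arrays alone, a replicate block and the joining of both vectors. Figures were drawn with matplotlib 3.10.9 (Python 3.11.15).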

Additional observations from a re-analysis of the deposited data

Results flagged for a closer look

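In 37 of the 106 genes tested for it, 1 of the 4 wild-type DICER1 arrays stood far from the other 3, its gap to the nearest array divided by the range being above Dixon's 95% critical value for 4 values, and in all 37 that array was R4. Chance gives such a gap in about 1 gene in 20, and 15.7% of all tested genes had one, 1983 of 2197 of them for R4. R4 lay toward the eGFP level in 26 and away from it in 11.

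Toward the eGFP level the gaps, as shares of the range, were those of Dicer1 (0.897), Epas1 (0.903), Arid4b (0.979), Foxh1 (0.836), Gdf3 (0.893), Ccnd1 (0.942), Mycn (0.904), Dnmt3b (0.878), Pou5f1 (0.83). Further such gaps were those of Igf2 (0.937), Bnip3 (0.939), Vegfa (0.856), Egln3 (0.931), Aldoc (0.904), Pfkp (0.85), Slc16a3 (0.867), Pgk1 (0.935), Acta2 (0.969). Further such gaps were those of Lrp2 (0.946), Cdh2 (0.858), Grhl2 (0.94), Irgm1 (0.853), Slc40a1 (0.887), Nefl (0.955), Prelid2 (0.96), Gpx3 (0.871).

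Away from the eGFP level they were those of Casp2 (0.845), Myc (0.884), Plagl1 (0.832), Dnmt3l (0.885), Cnn1 (0.898), Tagln (0.978), Dusp4 (0.909), Spry4 (0.844), Bmp4 (0.956). Further ones were those of Eomes (0.909), Hmox1 (0.849).

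Among the 106 genes described, 10 with all group means above the filter level had a change with wild-type DICER1 and a difference between the untransduced lines that were both called with opposite signs. The same held for 955 of all 13956 genes (6.84%) and for 25 of the 521 changed at least 2-fold. Since the 10 were picked for opposite signs, a test of the difference adds no support and is not given. On the log2 scale the difference between both changes was 3.16 for Acta2, 2.55 for Ccn1, 2.39 for Tagln, 2.85 for Nab2, 2.21 for Hbegf, 1.73 for Fosl1, 1.75 for Egr1, 2.88 for Phlda1, 1.86 for Fos, 3.46 for Hmox1. No explanation was tested.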

How the results depend on the processing

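Over 16 alternatives the counts of called genes and of genes changed at least 2-fold stayed within 1.5 times their values, as did those shared with the untransduced lines and set against the mutants after centring or without R4. One of the 16, the joining of wild-type arrays of both vectors, could not move any change, since their means are equal, and says nothing about stability. Leaving out 1 array in turn gave 3995 to 4320 genes called higher, 3635 to 4157 lower, 201 to 237 at least 2-fold higher and 299 to 342 at least 2-fold lower. Centring each array on its median gave 3788 higher and 4395 lower, and only R2 and R3 of wild-type DICER1, an alternative chosen after seeing the data, gave 235 and 347 genes at least 2-fold higher and lower. Of 106 named genes 105 kept their direction and side of the threshold wherever they were tested. The exception was Slc40a1, which was no longer called when any 1 of R1 to R3 or any eGFP array was left out, with the 7 arrays alone or with the block.

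The replicate numbers were also fitted as a block over the 5 ENvA groups, which gave 3883 genes higher and 3632 lower. Deviations of same-numbered eGFP and wild-type DICER1 arrays had correlations of 0.17, 0.20 and 0.01, the labels tie the numbers to no shared culture or day, and the exact relations between arrays affect this check, so no pairing was used. Low signal limits genes near 6.42.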
